A study of Mus musculus with 32 samples.

Results

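Kidney and liver transcriptomes were compared here in mice that had received no cisplatin. The samples were chosen by their labels, with earlier results of these data known: of 32 samples in the series, the 4 RNA sequencing libraries labelled as kidney control (n = 2) and liver control (n = 2). All mice were C57BL/6J wild-type females of 6 to 7 months, and none carried a transgene. The controls received an intraperitoneal injection of saline (154 mM), in the volume used for the drug in the treated mice of the series. According to the treatment protocol, injection was at ZT1 (hours after lights on) and the organs were taken at ZT5, whereas the sample labels give a time of 2 h after treatment. The replicates are described as biological, but the labels do not tie a library to an animal, so it is not known whether a kidney and a liver library came from the same mouse, and p-values measure only the spread between these samples. Each library was made from whole organ RNA after poly-A selection with a kit that does not mark strand, so reads of a gene and of an overlapping antisense gene cannot be told apart. The libraries were pooled for paired-end sequencing with 50-base reads.

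The kidney filters plasma through podocyte-lined glomeruli and then recovers sugar, amino acids, phosphate, salt and water from the filtrate along the proximal tubule, the thick ascending limb, the distal tubule and the collecting duct, each lined by cells with transporters of their own. The liver is built mostly of hepatocytes, which make plasma proteins, bile acids, urea and lipoproteins and degrade amino acids and drugs, beside sinusoidal endothelium, Kupffer cells, stellate cells and bile duct cells. Both organs make glucose, handle ammonia and secrete hormones, and they share epithelial transcription factors of the HNF family.

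The number of reads assigned to genes was 19319092 and 55043177 in the 2 kidney libraries and 40946533 and 48525522 in the 2 liver libraries. The 10 most abundant genes took 7.35% and 8.29% of kidney reads, against 15.3% and 21.6% of liver reads. Alb alone took 5.67% and 11.2% of the liver reads. Levels are given below as RPKM, read counts divided by exon length and by library size after TMM scaling, and fold changes as log2 of kidney over liver ± SE. Of 15549 genes with enough reads to test, 5840 (37.6%) differed by more than a log2 fold change of 0.4 at an adjusted p under 0.05 (edgeR quasi-likelihood test with Benjamini-Hochberg adjustment). Of these, 3421 (22.0% of genes tested) were higher in kidney and 2419 (15.6%) were higher in liver. The split depended on the scaling: with library size alone the numbers were 6484 and 1389, and the median log2 fold change of all genes moved from 0.036 to 0.885. Directions of small changes are therefore relative to the TMM scale. Without regard to a test, both kidney libraries lay above both liver libraries for 5822 genes (37.4%), and the reverse held for 5157 genes (33.2%).

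Genes called higher in kidney were more numerous but mostly less abundant. The median size of their log2 fold change was 3.29, or 3.12 with the 436 genes that had no liver read set at 3 reads, against 2.34 for the genes called higher in liver, 77 of which had no kidney read. Depth after TMM scaling was lower over the liver libraries together than over the kidney libraries. Having no liver read therefore shows less than having no kidney read. Only 110 of the 3421 kidney genes reached a mean of 100 RPKM in kidney, and 1071 stayed under 1 RPKM. In liver, 389 of 2419 reached 100 RPKM and 282 stayed under 1 RPKM. The genes called higher in liver took 62.2% and 64.3% of all liver reads and 9.36% and 10.1% of kidney reads. Those called higher in kidney took 33.0% and 34.1% of kidney reads and 2.79% and 2.36% of liver reads.

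**Figure D1:**
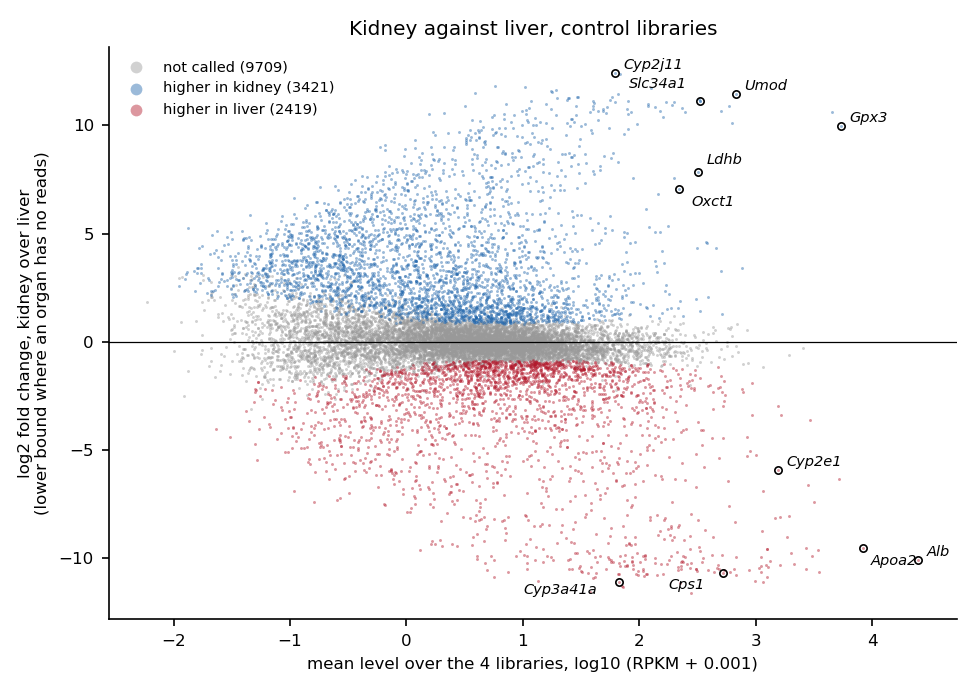
Each point is 1 of 15549 genes tested, with its mean level over the 4 control libraries on the x axis (log scale) and its log2 fold change of kidney over liver on the y axis; genes called higher in kidney (3421) and in liver (2419) are coloured, and genes with no read in one organ are drawn at the bound given by 3 reads. The most abundant genes at the right lie mostly on the liver side.

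In the organ where they were low, many genes stood below 0.2% of their level in the other organ. Of 591 genes called higher in liver with a mean of at least 50 RPKM there, 146 (24.7%) lay below 0.2% of their liver level in kidney 1 and 136 (23.0%) in kidney 2. Of these low values, 137 and 131 lay between 0.02% and 0.2%, and only 8 and 2 genes had no read at all. The median share was 0.0836% for those of at least 100 RPKM in liver with reads in both kidney libraries. That median is confined by the 0.2% limit and by leaving out genes at 0, so it does not by itself show a common share. In the other direction, of 231 genes called higher in kidney, 59 (25.5%) lay below 0.2% of their kidney level in liver 1 and 63 (27.3%) in liver 2, with 28 of the latter below 0.02%. The log2 ratio of kidney 1 to kidney 2 was set against that of liver 1 to liver 2 across genes. The 117 genes used had at least 100 RPKM in liver, under 0.2% of it in kidney and reads in both kidney libraries. Over these the ratios correlated (Pearson r = 0.66, Spearman rho = 0.52, a description of genes that share the same 4 libraries). Replicate differences of the organs also correlated over all genes tested (Pearson r = 0.366), so such a relation is not particular to these genes. In the other direction, 30 genes had at least 100 RPKM in kidney, under 0.2% of it in liver and reads in both liver libraries. Over these 30 genes Pearson r was 0.23 and Spearman rho 0.33, and the median share was 0.0560%. Genes with no read in either liver library are left out of the 30, and 13 of the 231 genes had no read in liver 2. The limits of 50 and 100 RPKM and of 0.02% and 0.2% were chosen after the values were seen. The libraries were pooled for sequencing, and the part that reads of other libraries have in these values was not tested. Log2 fold changes near 10 or −10 of abundant genes are therefore given as measured, and no order among them is read.

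**Figure D2:**
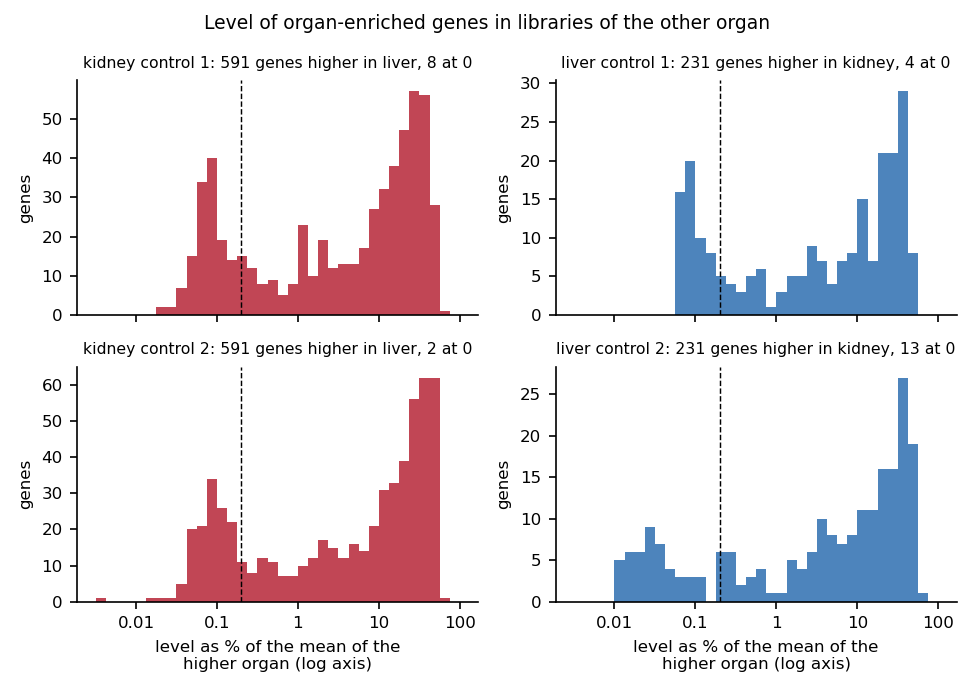
Histograms of the level in the other organ as a percent of the level in the organ where the gene is high (log axis), for genes called higher in liver in each kidney library (591 genes) and genes called higher in kidney in each liver library (231 genes). The dashed line is at 0.2%. In kidney 1, kidney 2 and liver 1 a second group of genes stands just under 0.1%, apart from the main group at 1% and above, and in liver 2 it stands lower.

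The most abundant transcripts were of different kinds in each organ. Gpx3, which encodes the plasma glutathione peroxidase that the kidney secretes (chr11:54902453-54910377, plus strand; GRCm38), was measured at 8831 and 12748 RPKM in kidney and 12.8 and 8.45 RPKM in liver (log2 9.99 ± 0.73, adjusted p = 2.39e-06). Kap, the kidney androgen-regulated protein of proximal tubule cells (chr6:133849851-133853762, minus strand), was measured at 10576 and 7463 RPKM in kidney and 9.93 and 1.54 RPKM in liver (log2 10.62 ± 1.03, adjusted p = 1.83e-05). Umod, the urinary protein uromodulin of the thick ascending limb (chr7:119462711-119479282, minus strand), stood at 1202 and 1509 RPKM in kidney and 0.771 and 0.209 RPKM in liver (log2 11.43 ± 0.82, adjusted p = 2.18e-06). For all 3 genes the lowest kidney library was over 100 times the highest liver library. Eef1a1, a translation elongation factor, was also among the 6 highest kidney genes and was not called, at 1388 and 1697 RPKM in kidney and 1945 and 2780 RPKM in liver (log2 −0.62 ± 0.45, adjusted p = 0.423).

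In liver, all 6 of the most abundant genes encode proteins that carry other molecules. Alb, serum albumin (chr5:90460897-90476602, plus strand), was measured at 29711 and 70543 RPKM in liver and 33.5 and 57.7 RPKM in kidney (log2 −10.10 ± 0.97, adjusted p = 1.72e-05). Apoa2, an apolipoprotein of high-density lipoprotein (chr1:171225054-171226379, plus strand), was measured at 11758 and 21480 RPKM in liver and 14.8 and 29.5 RPKM in kidney (log2 −9.55 ± 0.74, adjusted p = 3.77e-06). Apoe, an apolipoprotein that many tissues make, stood at 7206 and 13306 RPKM in liver and 111 and 141 RPKM in kidney (log2 −6.35 ± 0.65, adjusted p = 2.74e-05). Of the 6, Apoe kept the highest level in kidney. Hpx, the haem carrier haemopexin, stood at 10092 and 4052 RPKM in liver and 6.00 and 2.95 RPKM in kidney (log2 −10.63 ± 0.85, adjusted p = 4.72e-06), Fabp1, the hepatic fatty acid binding protein, at 4665 and 8988 RPKM in liver and 6.77 and 10.2 RPKM in kidney (log2 −9.64 ± 0.66, adjusted p = 1.6e-06), and Ttr, the thyroxine carrier transthyretin, at 3696 and 8865 RPKM in liver and 29.9 and 44.6 RPKM in kidney (log2 −7.40 ± 0.68, adjusted p = 1.28e-05). The liver libraries did not overlap with the kidney libraries for any of them.

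The start regions of 5 genes are shown as examples of promoters on each side of the comparison: Alb and Apoa1, the main apolipoprotein of high-density lipoprotein, for hepatocytes, Umod for the thick ascending limb, Slc34a1 for the proximal tubule and Kl for the distal tubule. They span 250 bases before to 50 bases after the start in RefSeq (GRCm38.p6), and lie at chr5:90460620-90460919 (plus strand), chr9:46228380-46228679 (plus strand), chr7:119479213-119479512 (minus strand), chr13:55399398-55399697 (plus strand) and chr5:150952357-150952656 (plus strand). Each is printed 5′ to 3′ on the gene's strand, and capitals mark matches on either strand to the HNF1 site core GTTAAT, the TATA box TATAAA, the oestrogen-related receptor element AAGGTCA or the HNF4 site CAAAGTC.
Alb: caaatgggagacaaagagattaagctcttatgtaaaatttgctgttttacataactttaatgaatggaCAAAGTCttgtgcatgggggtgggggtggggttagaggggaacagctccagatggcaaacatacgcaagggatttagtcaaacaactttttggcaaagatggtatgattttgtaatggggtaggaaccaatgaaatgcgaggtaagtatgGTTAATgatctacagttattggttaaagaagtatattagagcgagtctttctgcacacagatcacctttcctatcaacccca
Apoa1: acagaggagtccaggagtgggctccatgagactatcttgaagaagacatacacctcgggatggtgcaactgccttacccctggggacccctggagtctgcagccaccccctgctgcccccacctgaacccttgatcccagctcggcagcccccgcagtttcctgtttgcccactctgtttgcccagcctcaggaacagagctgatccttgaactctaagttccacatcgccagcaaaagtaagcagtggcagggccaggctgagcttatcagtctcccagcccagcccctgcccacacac
Umod: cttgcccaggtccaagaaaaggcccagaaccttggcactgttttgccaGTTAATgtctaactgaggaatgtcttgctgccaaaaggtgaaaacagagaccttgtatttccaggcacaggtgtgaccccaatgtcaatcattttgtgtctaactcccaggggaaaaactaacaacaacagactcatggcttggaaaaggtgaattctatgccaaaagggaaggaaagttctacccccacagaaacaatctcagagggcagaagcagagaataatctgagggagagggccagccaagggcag
Slc34a1: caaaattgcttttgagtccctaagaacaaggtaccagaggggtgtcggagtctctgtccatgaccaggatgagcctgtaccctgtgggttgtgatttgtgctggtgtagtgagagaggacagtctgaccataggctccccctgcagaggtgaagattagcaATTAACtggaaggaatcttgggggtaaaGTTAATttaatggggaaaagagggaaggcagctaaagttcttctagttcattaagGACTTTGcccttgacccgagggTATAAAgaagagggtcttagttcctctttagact
Kl: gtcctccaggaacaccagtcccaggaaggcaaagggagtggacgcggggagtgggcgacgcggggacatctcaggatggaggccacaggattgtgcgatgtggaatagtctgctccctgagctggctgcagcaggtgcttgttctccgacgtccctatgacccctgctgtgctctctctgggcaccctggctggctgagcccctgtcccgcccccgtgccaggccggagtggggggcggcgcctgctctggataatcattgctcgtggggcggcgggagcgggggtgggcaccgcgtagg
The Alb window held an HNF1 core and an HNF4 site, the Umod window an HNF1 core, the Slc34a1 window HNF1, TATA and HNF4 matches, and the Apoa1 and Kl windows none of the 4. A match is a description of these letters and not of a bound site.

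The share of promoters with each motif was counted by call and by level. A single RefSeq window was found for 2008 of the 3421 kidney genes, 1450 of the 2419 liver genes and 5968 of the 9709 genes not called. The HNF1 core was in 5.33% of kidney windows, 7.38% of liver windows, 4.12% of windows of genes not called and 7.35% of all 22862 windows. Among genes of at least 100 RPKM it was in 17.9% of 67 kidney windows and 17.8% of 242 liver windows. The TATA box was in 8.91% of kidney and 13.9% of liver windows, and in 11.9% and 23.6% of those at 100 RPKM or more, against 14.8% of all windows. The HNF4 site was in 4.13% and 6.07% (4.30% of all), and the oestrogen-related receptor element in 3.39% and 4.90% (4.65% of all). The median ratio of observed to expected CpG was 0.649 in kidney windows, 0.524 in liver windows and 0.791 for genes not called, against 0.374 for all windows. No test was made of these shares.

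The organ labels were checked with marker genes of their main cells, and the markers followed the labels. Counts of list members, here and below, stand beside 22.0% of all genes tested called higher in kidney and 15.6% in liver. All 13 hepatocyte markers were higher in liver (median log2 fold change −9.98, against 0.036 for all genes tested). All 12 markers of the proximal tubule (median 10.59), all 5 of the thick ascending limb (11.29, or 11.07 with genes at 0 set at 3 reads), all 5 of the distal convoluted tubule (10.68, or 9.40), the 5 tested of 6 markers of collecting duct principal cells (9.49), all 5 of intercalated cells (8.11) and all 7 of podocytes (4.52) were higher in kidney. In whole-organ RNA, fewer cells of a type and less RNA per cell cannot be told apart. The hepatocyte markers stood in kidney at a median of 0.108% and 0.115% of their liver level, and 9 of 13 lay below 0.2% in each kidney library. The 32 tubule and collecting duct markers stood in liver at a median of 0.102% and 0.0319% of their kidney level.

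Along the proximal tubule, Slc34a1, the main phosphate cotransporter of the brush border, stood at 509 and 812 RPKM in kidney and 0.456 and 0.130 RPKM in liver (log2 11.14 ± 0.81, adjusted p = 2.45e-06). Slc5a2, the glucose cotransporter that recovers most filtered glucose, stood at 98.6 and 109.9 RPKM in kidney and 0.124 and 0.0105 RPKM in liver (log2 10.57 ± 0.65, adjusted p = 8.39e-07). Lrp2 and Cubn, the endocytic receptors megalin and cubilin that take up filtered protein, had log2 fold changes of 10.74 ± 0.67 and 10.75 ± 0.67. Slc7a13, a transporter of acidic amino acids and cystine that is known for higher levels in males, was low in these female kidneys, at 0.992 and 1.15 RPKM in kidney and 0.0280 and 0 RPKM in liver (78.4-fold higher in kidney, with an exact 95% counting interval of 21.5 to 651). Among all 12 proximal markers it had the lowest kidney level. Slc4a4, a bicarbonate cotransporter that hepatocytes also express, had the smallest difference, at 84.5 and 75.1 RPKM in kidney and 20.7 and 14.4 RPKM in liver (log2 2.19 ± 0.35, adjusted p = 0.000958).

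Downstream, Slc12a1, the sodium-potassium-chloride cotransporter of the thick ascending limb and target of loop diuretics, stood at 321 and 355 RPKM in kidney and 0.271 and 0.0421 RPKM in liver (log2 11.07 ± 0.87, adjusted p = 4.18e-06). Slc12a3, the thiazide-sensitive cotransporter of the distal convoluted tubule, stood at 94.7 and 102 RPKM in kidney and 0.0917 and 0.0273 RPKM in liver (log2 10.68 ± 0.66, adjusted p = 8.42e-07). Cldn16, a paracellular magnesium channel, and Trpv5, an apical calcium channel, had no read in either liver library. Cldn16 stood at 10.9 and 13.02 RPKM in kidney, at least 322-fold higher in kidney. Trpv5 stood at 6.07 and 10.8 RPKM, at least 677-fold higher in kidney. Bounds of this kind cover counting error in the control libraries only. As log2 the bounds were 8.33 for Cldn16 and 9.40 for Trpv5, and the cisplatin libraries gave 8.50 and 7.53. In the collecting duct, Aqp2, the vasopressin-regulated water channel, stood at 146 and 174 RPKM in kidney and 0.127 and 0.0855 RPKM in liver (log2 10.53 ± 0.43, adjusted p = 2.6e-07). Its receptor gene Avpr2 had too few reads to test. The chloride-bicarbonate exchanger Slc26a4 of intercalated cells had a log2 fold change of 8.11 ± 0.46. In podocytes, Nphs1 (nephrin, of the slit diaphragm) stood at 3.14 and 5.18 RPKM in kidney and 0 and 0.00458 RPKM in liver, 2018-fold higher in kidney, with an exact 95% counting interval of 362 to 79737. The podocyte median was lower than those of the tubule segments, and Podxl, Synpo, Wt1, Ptpro and Magi2 kept reads in liver.

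**Figure D3:**
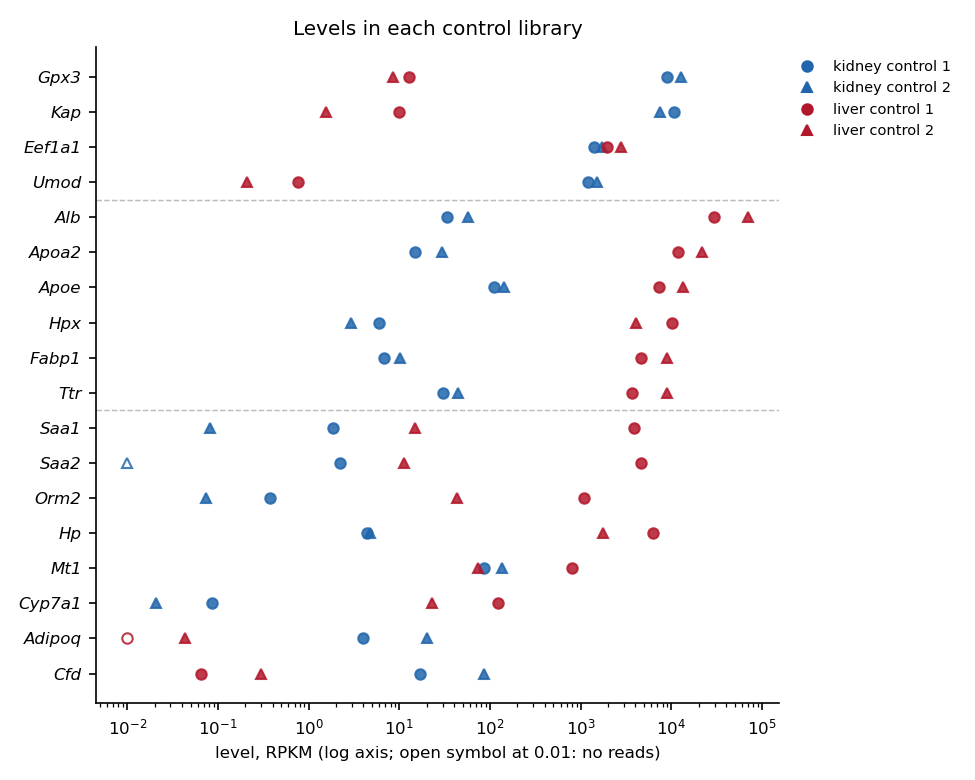
Level of selected genes in each of the 4 control libraries (RPKM, log scale), for genes among the 6 most abundant of each organ and for genes that vary within an organ; blue points are kidney, red points are liver, and an open point at 0.01 stands for no reads. Kidney and liver points are far apart for Gpx3, Kap, Umod and the liver genes and lie together for Eef1a1, and the liver libraries lie far apart from each other for Saa1 and Saa2.

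Other liver cell types were also visible. All 5 Kupffer cell markers (median −9.84) and all 5 markers of liver sinusoidal endothelium (−5.32) were higher in liver, as were 5 of 6 hepatic stellate cell markers (−3.37). Clec4f, a lectin of Kupffer cells, stood at 139 and 124 RPKM in liver and 0.0874 and 0.0703 RPKM in kidney (log2 −10.73 ± 0.44, adjusted p = 2.6e-07). Clec4g, a lectin of sinusoidal endothelium, stood at 46.8 and 53.0 RPKM in liver and 0.0146 and 0.0412 RPKM in kidney (log2 −10.52 ± 0.43, adjusted p = 2.6e-07). Stab2, a hyaluronan scavenger receptor of the same cells, had a smaller difference, with 11.1 and 10.2 RPKM in liver and 0.991 and 1.16 RPKM in kidney (log2 −3.30 ± 0.26, adjusted p = 4.89e-06). Reln, a stellate cell marker, had a log2 fold change of −3.86 ± 0.28, while Des, desmin, was not called (log2 −0.25 ± 0.42, adjusted p = 0.769). General endothelial markers showed no single direction: 2 of 7 were higher in kidney, 1 in liver and 4 were not called (median 0.53), with 2 in liver when kidney replicate 2 was left out and 4 in kidney with library size alone. These counts lie near the shares of all genes tested (22.0% and 15.6%). Plat, tissue plasminogen activator, stood at 9.30 and 11.5 RPKM in kidney and 0.0577 and 0.175 RPKM in liver (log2 6.48 ± 0.46, adjusted p = 2.21e-06).

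The list of bile duct cell markers went against its organ. Of 5 markers, 4 were higher in kidney (median 4.30): Krt19 and Krt7, keratins of simple epithelium, Epcam, an epithelial adhesion protein, and Cftr, a chloride channel, all of which renal tubules are known to express too. Epcam stood at 60.8 and 64.2 RPKM in kidney and 0.984 and 1.16 RPKM in liver (log2 5.86 ± 0.30, adjusted p = 3.4e-07), and Krt7 at 13.5 and 17.6 RPKM in kidney and 0.111 and 0.250 RPKM in liver (log2 6.43 ± 0.42, adjusted p = 1.2e-06). Sox9, a transcription factor of bile ducts, was the exception, at 0.878 and 1.79 RPKM in liver and 0.226 and 0.385 RPKM in kidney (log2 −2.10 ± 0.49, adjusted p = 0.00859). That call was lost without kidney replicate 1 and without liver replicate 2, where the log2 fold change lay between −1.79 and −1.47, and it was also lost with library size alone.

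Of 5 erythroid markers, none was called (median −0.20), and 1 was higher in kidney without liver replicate 2. Their summed levels moved between libraries of one organ, from 636 to 1128 RPKM in kidney and from 465 to 1580 RPKM in liver. Of 7 leukocyte markers, 3 were higher in liver and 4 were not called (median −1.04), and Lyz2, lysozyme, had 125 and 82.9 RPKM in liver and 30.2 and 31.7 RPKM in kidney (log2 −1.75 ± 0.28, adjusted p = 0.00118). Without kidney replicate 2 or without liver replicate 1, only 1 leukocyte marker was called higher in liver, and with library size alone none was. Adipocyte markers were present in the kidney libraries and uneven between them. Their summed level was 22.9 and 125 RPKM in kidney, against 0.103 and 0.353 RPKM in liver, and all 4 tested were higher in kidney (median 8.44). Adipoq, adiponectin, stood at 3.96 and 20.3 RPKM in kidney and 0 and 0.0439 RPKM in liver. The adrenal cortex enzymes Cyp11b1, Cyp11a1 and Cyp21a1 were at 0 in kidney 1 and at most 0.0183 RPKM in kidney 2. The 2 pancreatic acinar markers that could be tested were not called. The source of the adipocyte marker reads, and what it added to other kidney genes, was not tested.

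**Figure D4:**
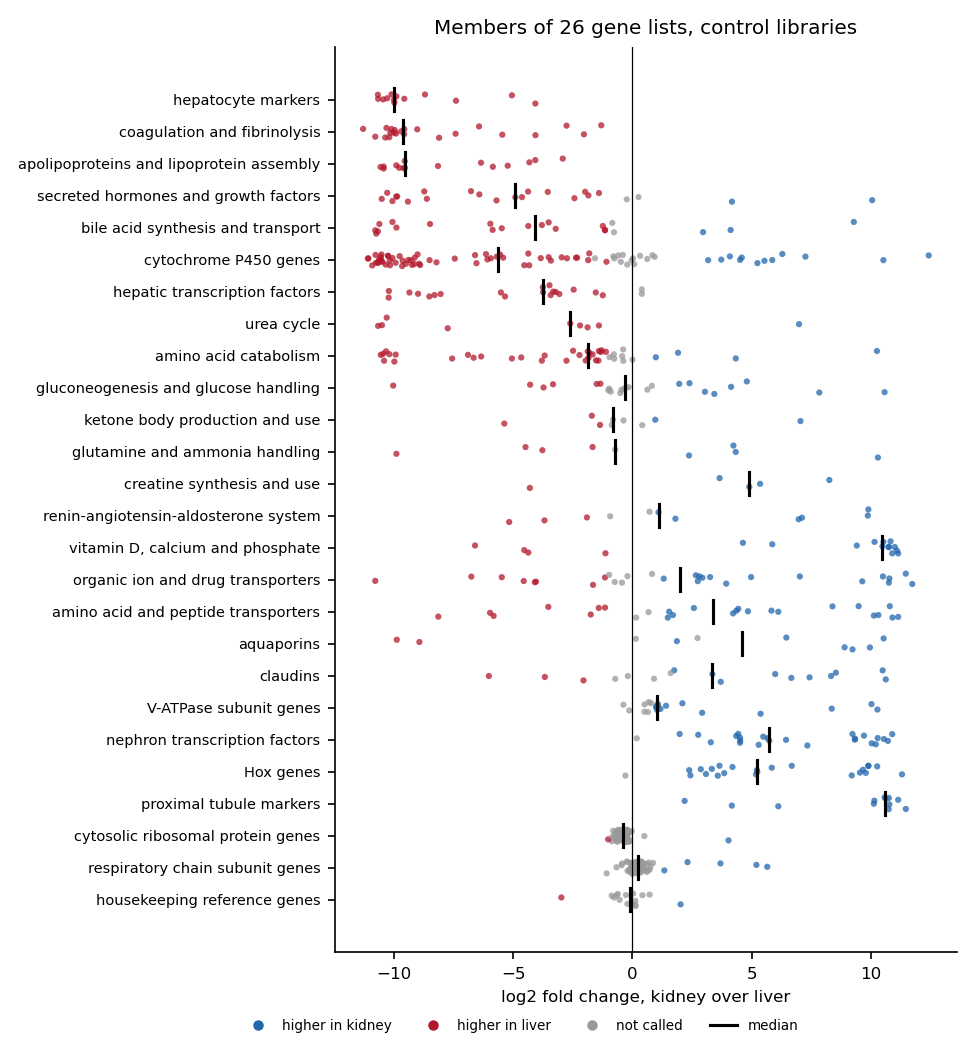
Log2 fold changes of kidney over liver for the members of each gene list (1 point a gene, with the list's median as a bar and genes at 0 in one organ set at 3 reads) in 26 gene lists. Proximal tubule and nephron transcription factor lists lie on the kidney side, plasma protein and hepatocyte lists on the liver side, and ribosomal, respiratory chain and housekeeping genes near 0.

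Genes of plasma proteins were on the liver side. All 22 coagulation and fibrinolysis genes were higher in liver (median −9.63), and so were all 15 genes of apolipoproteins and lipoprotein assembly (−9.54). F2, prothrombin, stood at 672 and 745 RPKM in liver and 0.611 and 0.769 RPKM in kidney (log2 −10.00 ± 0.56, adjusted p = 5.14e-07). F9, coagulation factor IX, stood at 154 and 133 RPKM in liver and 0 and 0.0847 RPKM in kidney (log2 −11.29 ± 0.70, adjusted p = 8.57e-07). The smallest differences in the clotting list were those of Pros1, protein S (log2 −2.03 ± 0.29, adjusted p = 0.000439), which endothelium also makes, and F13b (log2 −1.31 ± 0.29, adjusted p = 0.00963), whose call was lost without either kidney replicate. Among lipoprotein genes, Apob, the structural protein of very-low-density lipoprotein, kept 23.2 and 30.4 RPKM in kidney against 477 and 425 RPKM in liver (log2 −4.07 ± 0.47, adjusted p = 7.24e-05). Mttp, which loads lipid onto Apob, kept a similar position (log2 −4.32 ± 0.36, adjusted p = 7.42e-06). Apom, a carrier of sphingosine phosphate that the proximal tubule also makes, had the smallest difference of the list, at 348 and 547 RPKM in liver and 42.4 and 75.6 RPKM in kidney (log2 −2.92 ± 0.40, adjusted p = 0.000263).

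Liver replicate 1 stood apart in some acute-phase genes. Saa1, serum amyloid A, stood at 3907 RPKM in liver 1 and 14.9 RPKM in liver 2, and Saa2 at 4639 and 11.1 RPKM. The Saa2 call was lost without liver replicate 1 or without kidney replicate 2, where the log2 fold change was −3.30 and −10.02. Orm2, an acute-phase acid glycoprotein, stood at 1074 and 42.9 RPKM in the same libraries, Hp, haptoglobin, at 6216 and 1778 RPKM, and Hpx at 10092 and 4052 RPKM. The metallothioneins Mt1 (802 and 74.3 RPKM in liver, against 86.6 and 136 RPKM in kidney) and Mt2 (193 and 16.5 RPKM in liver, against 11.6 and 32.1 RPKM in kidney) were higher in liver 1 as well and were not called between organs (log2 −1.98 ± 0.81, adjusted p = 0.095 and log2 −2.25 ± 0.86, adjusted p = 0.0746). Cyp7a1, the rate-limiting enzyme of bile acid synthesis, differed between the liver libraries in the same direction, at 121 and 23.0 RPKM. Not all acute-phase genes differed this much. In liver 1 and liver 2, Fga stood at 3242 and 3225 RPKM, Fgb at 2684 and 2328, Fgg at 3927 and 3532, and Hamp at 4062 and 4490 RPKM. For genes other than the metallothioneins, both liver libraries lay above both kidney libraries. The state of the animal behind liver replicate 1 is not given in the labels.

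Of 23 genes for secreted hormones and growth factors that were tested, 19 were higher in liver, 2 in kidney and 2 were not called (median −4.91). Hamp, the iron hormone hepcidin, stood at 4062 and 4490 RPKM in liver and 3.25 and 3.60 RPKM in kidney (log2 −10.28 ± 0.51, adjusted p = 3.01e-07). Igf1, insulin-like growth factor 1, stood at 122 and 87.9 RPKM in liver and 0.945 and 0.984 RPKM in kidney (log2 −6.77 ± 0.43, adjusted p = 1.02e-06). The exceptions were Egf, epidermal growth factor, which distal tubules make, at 157 and 229 RPKM in kidney and 0.287 and 0.0753 RPKM in liver (log2 10.05 ± 0.79, adjusted p = 3.97e-06), and Bmp7, a factor of kidney development (log2 4.17 ± 0.40, adjusted p = 1.93e-05). Vegfa and Gdf15 were not called. Of 20 iron and copper genes, 10 were higher in liver, 5 in kidney and 5 were not called (median −1.92). Tfr2, the iron-sensing receptor of hepatocytes, stood at 173 and 154 RPKM in liver and 0.232 and 0.270 RPKM in kidney (log2 −9.33 ± 0.44, adjusted p = 2.71e-07), whereas Tfrc, the receptor that takes up transferrin in most cells, was higher in kidney (17.9 and 13.5 RPKM in kidney and 4.73 and 3.01 RPKM in liver; log2 2.02 ± 0.30, adjusted p = 0.00057).

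Bile acid genes were mostly on the liver side, with a few transporters on the kidney side. Of 22 tested, 17 were higher in liver, 3 in kidney and 2 were not called (median −4.08). Cyp8b1, which sets the balance of bile acid species, stood at 76.8 and 154 RPKM in liver and 0.111 and 0.104 RPKM in kidney (log2 −10.06 ± 0.53, adjusted p = 3.83e-07), and Abcb11, the export pump into bile, at 228 and 241 RPKM in liver and 0.154 and 0.124 RPKM in kidney (log2 −10.74 ± 0.51, adjusted p = 2.71e-07). Slc10a1, the hepatic uptake transporter, had a log2 fold change of −9.89 ± 0.49. The 3 members higher in kidney were Slc10a2, the uptake transporter known from ileum and proximal tubule (59.9 and 33.7 RPKM in kidney and 6.90 and 5.13 RPKM in liver; log2 2.96 ± 0.35, adjusted p = 9.52e-05), and both subunits of the basolateral exporter. Slc51a stood at 6.63 and 12.1 RPKM in kidney and 0 and 0.0284 RPKM in liver, 746-fold higher in kidney, with an exact 95% counting interval of 255 to 3618, and Slc51b at 30.5 and 36.03 RPKM in kidney and 1.44 and 2.40 RPKM in liver (log2 4.12 ± 0.36, adjusted p = 9.91e-06).

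Nitrogen metabolism was divided between the organs. Of 9 urea cycle genes, 8 were higher in liver (median −2.61). Cps1, the enzyme that commits ammonia to urea, stood at 996 and 1105 RPKM in liver and 0.661 and 0.636 RPKM in kidney (log2 −10.66 ± 0.61, adjusted p = 5.52e-07), and Otc, ornithine transcarbamylase, at 158 and 195 RPKM in liver and 0.119 and 0.123 RPKM in kidney (log2 −10.50 ± 0.48, adjusted p = 2.6e-07). Ass1 and Asl, which also make arginine in the proximal tubule, had log2 fold changes of only −1.88 ± 0.45 and −2.61 ± 0.37, and Ass1 was not called without kidney replicate 1 (−1.61, adjusted p = 0.12). Arg2, the mitochondrial arginase, was the exception, at 21.9 and 24.1 RPKM in kidney and 0.168 and 0.191 RPKM in liver (log2 6.98 ± 0.37, adjusted p = 3.79e-07). Of 9 genes that handle glutamine and ammonia, 4 were higher in kidney, 4 in liver and 1 was not called (median −0.72). The ammonia channel Rhcg of the collecting duct stood at 38.0 and 66.9 RPKM in kidney and 0.0806 and 0 RPKM in liver (log2 10.29 ± 0.67, adjusted p = 1.15e-06), and Asns, asparagine synthetase, at 3.83 and 4.63 RPKM in kidney and 0.154 and 0.266 RPKM in liver (log2 4.33 ± 0.43, adjusted p = 2.41e-05). Slc38a3, a glutamine transporter, was on the liver side (360.3 and 390.4 RPKM in liver and 12.8 and 20.9 RPKM in kidney; log2 −4.48 ± 0.44, adjusted p = 2.31e-05). Glul, glutamine synthetase, was not called (log2 −0.72 ± 0.41, adjusted p = 0.295).

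Of 40 amino acid catabolism genes, 29 were higher in liver, 4 in kidney and 7 were not called (median −1.86). Tat, tyrosine aminotransferase, stood at 861 and 996 RPKM in liver and 0.554 and 0.758 RPKM in kidney (log2 −10.45 ± 0.55, adjusted p = 3.86e-07), and Hal, histidase, at 176 and 177 RPKM in liver and 0.156 and 0.123 RPKM in kidney (log2 −10.33 ± 0.49, adjusted p = 2.71e-07). The 4 on the kidney side were Dao, D-amino acid oxidase (76.0 and 101 RPKM in kidney and 0.122 and 0.0205 RPKM in liver; log2 10.25 ± 0.59, adjusted p = 5.8e-07), Hao2, a peroxisomal hydroxyacid oxidase (log2 4.33 ± 0.40, adjusted p = 1.39e-05), Acmsd, an enzyme of tryptophan breakdown (log2 1.91 ± 0.27, adjusted p = 0.000417), and Ddo, D-aspartate oxidase (log2 0.98 ± 0.24, adjusted p = 0.024). The Ddo call was lost without either kidney replicate and without liver replicate 2. Of 26 amino acid and peptide transporters, 17 were higher in kidney, 7 in liver and 2 were not called (median 3.40). Slc6a19, which recovers neutral amino acids at the brush border, stood at 57.1 and 38.1 RPKM in kidney and 0.0360 and 0.0485 RPKM in liver (log2 10.12 ± 0.46, adjusted p = 2.6e-07), and Slc7a9, of the cystine transporter, at 53.5 and 49.6 RPKM in kidney and 0.0448 and 0.0340 RPKM in liver (log2 10.31 ± 0.40, adjusted p = 2.6e-07). Slc6a20a had no liver read and 2.79 and 4.07 RPKM in kidney, at least 334-fold higher in kidney. On the liver side, Slc7a2, a cationic amino acid transporter, had a log2 fold change of −5.82 ± 0.37 and Slc38a4 one of −8.14 ± 0.45.

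Creatine synthesis was split by step. Gatm, which makes guanidinoacetate, stood at 403 and 287 RPKM in kidney and 9.39 and 7.53 RPKM in liver (log2 5.35 ± 0.41, adjusted p = 3.77e-06). Gamt, which methylates guanidinoacetate to creatine, stood at 162 and 298 RPKM in liver and 8.13 and 15.1 RPKM in kidney (log2 −4.30 ± 0.44, adjusted p = 3.23e-05). The first enzyme was thus higher in kidney and the second in liver, with no overlap of libraries. The creatine transporter Slc6a8 (log2 4.90 ± 0.30, adjusted p = 7.93e-07), the cytosolic kinase Ckb (log2 3.66 ± 0.32, adjusted p = 1.09e-05) and the mitochondrial kinase Ckmt1 (log2 8.25 ± 0.55, adjusted p = 1.43e-06) were all higher in kidney. Genes of ketone metabolism showed no single direction, with 2 of 9 genes higher in kidney, 3 in liver and 4 not called (median −0.82), and the kidney call of Slc16a7 was lost without any one of the 4 libraries. Of all genes tested, 22.0% were called higher in kidney and 15.6% in liver. Oxct1, which activates ketones for use, stood at 419 and 459.9 RPKM in kidney and 3.20 and 3.46 RPKM in liver (log2 7.04 ± 0.44, adjusted p = 9.31e-07).

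The main enzymes of glucose production were not called in either direction, whereas other genes of glucose handling were called on both sides. Of 24 genes of gluconeogenesis and glucose handling, 8 were higher in kidney, 6 in liver and 10 were not called (median −0.33). The enzymes that carry out gluconeogenesis were among the latter: Pck1, phosphoenolpyruvate carboxykinase, stood at 761 and 1015 RPKM in kidney and 501 and 510.3 RPKM in liver (log2 0.81 ± 0.40, adjusted p = 0.225), G6pc, glucose-6-phosphatase, at 139 and 216 RPKM in kidney and 266 and 223 RPKM in liver (log2 −0.46 ± 0.35, adjusted p = 0.474), Fbp1, fructose-1,6-bisphosphatase, at 540.1 and 631 RPKM in kidney and 1084 and 1210 RPKM in liver (log2 −0.97 ± 0.37, adjusted p = 0.113), and Pcx, pyruvate carboxylase, had log2 −1.01 ± 0.37, adjusted p = 0.0907. A missed call does not show that these levels were equal. Hk1, the hexokinase of most tissues, stood at 15.4 and 26.4 RPKM in kidney and 0.918 and 1.46 RPKM in liver (log2 4.14 ± 0.38, adjusted p = 1.39e-05).

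Related genes often took opposite sides. Of 20 pairs of related genes in which one had been proposed for kidney and the other for liver, 14 were called in opposite directions as proposed, 3 were called in the same direction and 3 had one member or neither called. Kl, the FGF23 co-receptor klotho, stood at 64.7 and 95.4 RPKM in kidney and 0.0708 and 0.0130 RPKM in liver (log2 10.89 ± 0.73, adjusted p = 1.34e-06), whereas Klb, the FGF19 and FGF21 co-receptor, stood at 16.8 and 10.9 RPKM in liver and 0.0712 and 0.360 RPKM in kidney (log2 −5.86 ± 0.58, adjusted p = 2.22e-05). Hsd11b2, which inactivates cortisol or corticosterone in aldosterone target cells, stood at 80.8 and 139.9 RPKM in kidney and 0.163 and 0.0659 RPKM in liver (log2 9.89 ± 0.53, adjusted p = 4.16e-07). Hsd11b1, which regenerates the hormone, stood at 132 and 261 RPKM in liver and 4.11 and 6.82 RPKM in kidney (log2 −5.17 ± 0.49, adjusted p = 1.71e-05). In each of these pairs the libraries of the organs did not overlap for either gene.

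Arg2 and Arg1 formed another such pair, Arg1 standing at 829 and 1079 RPKM in liver and 0.646 and 0.845 RPKM in kidney (log2 −10.30 ± 0.55, adjusted p = 4.1e-07). For lactate dehydrogenase, Ldhb stood at 575 and 697 RPKM in kidney and 2.77 and 2.80 RPKM in liver (log2 7.83 ± 0.43, adjusted p = 4.99e-07), while Ldha was high in both organs, at 381 and 427 RPKM in liver and 119 and 167 RPKM in kidney (log2 −1.50 ± 0.37, adjusted p = 0.0139), and was not called without kidney replicate 1 (−1.28, adjusted p = 0.13). In the pair of fatty acid transport proteins, Slc27a2 was only a little higher in kidney (log2 1.29 ± 0.40, adjusted p = 0.0425), a call lost without any one of the 4 libraries, and Slc27a5 was higher in liver (log2 −10.61 ± 0.63, adjusted p = 6.38e-07). In the pair of glucose transporters, the call of Slc2a2 (log2 −1.34 ± 0.33, adjusted p = 0.015) was lost without either kidney replicate and without liver replicate 2. The pairs that did not divide were Sdsl and Sds, both higher in liver, Slc22a8 and Slc22a7, and Esrrg and Esrra, all 4 higher in kidney, and Fbp2 with Fbp1, Hnf4g with Hnf4a, and Pck2 with Pck1, in which one or neither was called. The pairs were chosen by known expression, so their direction is not independent of what was already known of these organs.

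**Figure D5:**
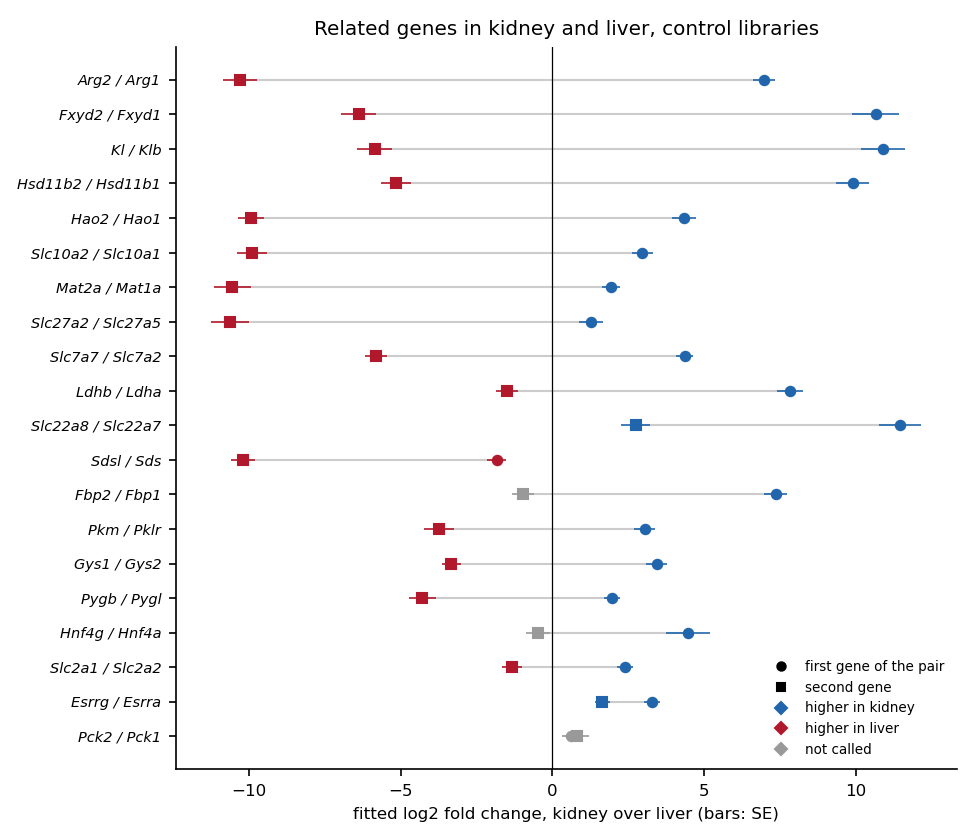
Log2 fold changes of kidney over liver ± SE for both members of 20 pairs of related genes, with circles for the member proposed for kidney, squares for the member proposed for liver, and colour for the call. In 14 pairs the members lie on opposite sides and both pass the test.

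In the renin-angiotensin-aldosterone system, the precursor gene was higher in liver and the renin gene in kidney: of 11 genes tested, 6 were higher in kidney, 3 in liver and 2 were not called (median 1.09). Agt, angiotensinogen, stood at 483 and 712 RPKM in liver and 33.8 and 58.8 RPKM in kidney (log2 −3.69 ± 0.43, adjusted p = 8.3e-05). Ren1, renin, stood at 29.7 and 41.7 RPKM in kidney and 0.0724 and 0 RPKM in liver (log2 9.87 ± 0.60, adjusted p = 7.43e-07). Ace (log2 7.11 ± 0.49, adjusted p = 1.81e-06), which processes angiotensin peptides, was on the kidney side with renin. The receptor gene Agtr1a was higher in liver, at 54.6 and 41.0 RPKM in liver and 12.0 and 13.5 RPKM in kidney (log2 −1.91 ± 0.27, adjusted p = 0.000422). Enpep and Nr3c2, the mineralocorticoid receptor, were not called.

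Vitamin D, calcium and phosphate genes were mostly on the kidney side, 13 of 17 higher in kidney and 4 in liver (median 10.74, or 10.48 with genes at 0 set at 3 reads). The liver members include the first hydroxylation and the carrier: Cyp2r1 stood at 10.6 and 13.4 RPKM in liver and 0.545 and 0.493 RPKM in kidney (log2 −4.54 ± 0.33, adjusted p = 2.59e-06) and Gc, the vitamin D binding protein, at 5164 and 6020 RPKM in liver and 56.0 and 59.3 RPKM in kidney (log2 −6.60 ± 0.55, adjusted p = 6.27e-06). The kidney members include both later enzymes. Cyp27b1, which makes the active hormone, was low, at 0.587 and 0.900 RPKM in kidney and 0.0233 and 0 RPKM in liver, 69.1-fold higher in kidney, with an exact 95% counting interval of 18.9 to 575. Cyp24a1, which degrades it, stood higher, at 18.3 and 9.22 RPKM in kidney and 0 and 0.0170 RPKM in liver, 1397-fold higher in kidney, with an exact 95% counting interval of 386 to 11535. Slc34a3, a phosphate cotransporter, had no liver read and 23.0 and 21.4 RPKM in kidney, at least 1140-fold higher in kidney. S100g and Calb1, calcium-binding proteins of the distal tubule, had log2 fold changes of 10.82 ± 0.70 and 11.09 ± 0.71.

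Of 28 organic ion and drug transporters tested, 15 were higher in kidney, 8 in liver and 5 were not called (median 1.99). Slc22a6, the renal organic anion transporter OAT1, stood at 62.5 and 98.3 RPKM in kidney and 0.0753 and 0.0152 RPKM in liver (log2 10.77 ± 0.61, adjusted p = 5.57e-07), and Slc22a12, the urate transporter, at 188 and 319 RPKM in kidney and 0.146 and 0 RPKM in liver (log2 11.73 ± 0.87, adjusted p = 2.63e-06). Slc22a2, the organic cation transporter OCT2, known to carry cisplatin into proximal tubule cells, stood at 53.3 and 103 RPKM in kidney and 0.109 and 0.0855 RPKM in liver (log2 9.64 ± 0.51, adjusted p = 3.99e-07). Slc47a1, the exporter MATE1, which moves organic cations into urine and bile, was not called (98.8 and 101 RPKM in kidney and 57.2 and 56.0 RPKM in liver; log2 0.82 ± 0.29, adjusted p = 0.0964). Slco1b2, an uptake transporter of hepatocytes, stood at 318 and 255 RPKM in liver and 0.168 and 0.159 RPKM in kidney (log2 −10.78 ± 0.52, adjusted p = 2.71e-07).

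Channels and junction proteins were mostly on the kidney side. Of 10 aquaporin genes tested, 6 were higher in kidney, 2 in liver and 2 were not called (median 4.59). Aqp1, the water channel of proximal tubule and erythrocytes, was abundant in both organs, at 294 and 404 RPKM in kidney and 81.4 and 111 RPKM in liver (log2 1.86 ± 0.36, adjusted p = 0.00334). Aqp7, a glycerol channel of the proximal tubule, had no liver read, and stood at 6.66 and 7.98 RPKM in kidney, at least 475-fold higher in kidney. Aqp9, the glycerol channel of hepatocytes, stood at 143 and 133 RPKM in liver and 0.174 and 0.126 RPKM in kidney (log2 −9.88 ± 0.45, adjusted p = 2.6e-07), and Aqp8 had log2 −8.93 ± 0.63, adjusted p = 2e-06. Of 17 claudins tested, 10 were higher in kidney, 3 in liver and 4 were not called (median 3.35). Cldn10 stood at 72.5 and 77.5 RPKM in kidney and 0.0695 and 0.0234 RPKM in liver (log2 10.62 ± 0.46, adjusted p = 2.6e-07), and Cldn3 was higher in liver, at 92.8 and 115 RPKM in liver and 6.52 and 9.75 RPKM in kidney (log2 −3.67 ± 0.31, adjusted p = 7.26e-06). Of 20 subunits of the vacuolar proton pump, 13 were higher in kidney, none in liver and 7 were not called (median 1.05), which depended on the fit: 8 were called by DESeq2 and 7 without kidney replicate 2. Atp6v1b1, the subunit of intercalated cells, stood at 22.6 and 29.0 RPKM in kidney and 0.0411 and 0.00692 RPKM in liver (log2 10.02 ± 0.50, adjusted p = 3.06e-07). Atp6v1a, which every form of the pump needs, differed less (111 and 121 RPKM in kidney and 15.7 and 14.9 RPKM in liver; log2 2.92 ± 0.33, adjusted p = 6.57e-05).

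Most cytochrome P450 genes were higher in liver: of 82 tested (109 in the files), 56 were higher in liver, 12 in kidney and 14 were not called (median −5.81, or −5.62 with genes at 0 set at 3 reads). Cyp2e1, which oxidises ethanol and paracetamol, stood at 3405 and 2749 RPKM in liver and 39.6 and 61.0 RPKM in kidney (log2 −5.93 ± 0.54, adjusted p = 1.19e-05). Cyp1a2, a hepatic enzyme of caffeine metabolism, stood at 273 and 414 RPKM in liver and 0.0715 and 0.424 RPKM in kidney (log2 −10.25 ± 0.74, adjusted p = 2.2e-06). Cyp2b13, a female-predominant enzyme, stood at 22.5 and 31.4 RPKM in liver and 0 and 0.0154 RPKM in kidney, 2448-fold higher in liver, with an exact 95% counting interval of 677 to 20225. On the kidney side, Cyp2j11 stood at 114 and 135 RPKM with no liver read, at least 5478-fold higher in kidney (log2 12.42), the highest bound in the comparison. In the cisplatin libraries the log2 fold change of Cyp2j11 was 9.14, below that bound. Cyp4b1 stood at 153 and 206 RPKM in kidney and 18.6 and 21.2 RPKM in liver (log2 3.17 ± 0.33, adjusted p = 3.43e-05). Near-identical members of the Cyp2c, Cyp2d, Cyp3a and Cyp4a families share sequence, so the division of reads among them is uncertain.

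Called genes of at least 10 RPKM were ranked by fitted log2 fold change, and the first 12 in each direction were listed. The 10 RPKM limit used the plain count total. On the TMM scale used elsewhere Tfap2b and Oxgr1 lay below it, Oxgr1 at 7.82 and 8.88 RPKM in kidney. For a gene with no read in 1 organ the fit lies above the bound, as for Cyp2j11 (log2 16.25 against 12.42). The ranking therefore favours such genes. Umod, measured as 2761-fold higher in kidney, was not listed, although most of the kidney bounds given here are smaller. On the kidney side all 12 had no read in liver: beside Cyp2j11 and Slc34a3 they were Folh1, a brush border peptidase (50.1 and 28.5 RPKM in kidney, at least 2462-fold higher in kidney), Pdzd3, a scaffold of brush border transporters (at least 2327-fold higher in kidney), Cckar, a cholecystokinin receptor (at least 1442-fold higher in kidney), Tmem213 (at least 1064-fold higher in kidney), Cwh43 (at least 790.4-fold higher in kidney), Oxgr1, a receptor for 2-oxoglutarate (at least 707-fold higher in kidney), and the transcription factors Tfap2b, Emx1, Hoxb9 and Hoxa7. In the cisplatin libraries the log2 fold changes of these 12 genes ran from 7.18 (Hoxa7) to 12.7 (Oxgr1), and only Oxgr1 lay above its bound. On the liver side, Urad and Sult3a2 had no kidney read. Urad, an enzyme of urate breakdown, stood at 79.9 and 49.0 RPKM in liver, at least 1596-fold higher in liver, and Sult3a2, a sulfotransferase, at 26.8 and 16.2 RPKM, at least 646-fold higher in liver. The other 10 were Orm2, Mup17, Ces3b, F9, Apcs, Saa2, Cyp3a41a, Cyp2b13, Saa1 and Cyp2c54, of which Mup17, Cyp3a41a, Cyp2b13 and Cyp2c54 belong to families of near-identical copies. Mup17 stood at 77.3 and 73.3 RPKM in liver and 0 and 0.0312 RPKM in kidney, 3381-fold higher in liver, with an exact 95% counting interval of 935 to 27926.

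Transcription factors of the nephron were almost all on the kidney side, 24 of 25 being higher in kidney (median 5.74). Pax2 and Pax8, factors of kidney development, stood at 6.14 and 6.56 RPKM in kidney and 0.00555 and 0 RPKM in liver, 2309-fold higher in kidney, with an exact 95% counting interval of 414 to 91228, and at 7.52 and 10.9 RPKM in kidney and 0.00990 and 0.0200 RPKM in liver (log2 9.22 ± 0.46, adjusted p = 3.01e-07). Tfap2b, a factor of the distal nephron, had no liver read and 8.97 and 8.19 RPKM in kidney, at least 1179-fold higher in kidney. Sall1 was the only one of the 25 not called (log2 0.18 ± 0.31, adjusted p = 0.802). Of 21 hepatic factors, 19 were higher in liver and 2 were not called (median −3.75). Foxa2 stood at 16.6 and 26.9 RPKM in liver and 0 and 0.0244 RPKM in kidney (log2 −10.21 ± 0.57, adjusted p = 5.32e-07), and Nr1i3, the xenobiotic receptor CAR, at 8.27 and 7.16 RPKM in liver and 0.0326 and 0.0197 RPKM in kidney (log2 −8.30 ± 0.41, adjusted p = 2.97e-07). Onecut1 had no kidney read, and stood at 7.63 and 2.16 RPKM in liver, at least 652-fold higher in liver. Cebpa kept reads in kidney, at 229 and 231 RPKM in liver and 17.6 and 23.7 RPKM in kidney (log2 −3.48 ± 0.34, adjusted p = 2.45e-05). Bcl6 and Hlf were not called.

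Factors known from both organs showed no single direction. Of 10, 3 were higher in kidney, 4 in liver and 3 were not called (median −0.42). Hnf4a stood at 126 and 172 RPKM in kidney and 158 and 255 RPKM in liver (log2 −0.47 ± 0.39, adjusted p = 0.499) and was not called. Hnf4g, a relative of Hnf4a, was higher in kidney, at 2.12 and 1.02 RPKM in kidney and 0.114 and 0.0231 RPKM in liver (log2 4.48 ± 0.73, adjusted p = 0.000733). Ppargc1a, a co-activator of mitochondrial genes, was higher in kidney (log2 2.94 ± 0.27, adjusted p = 1.65e-05), and Rxra, a partner of many nuclear receptors, in liver (log2 −2.46 ± 0.36, adjusted p = 0.000427).

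Hox genes, which mark position along the body axis during development, were a kidney group in these adult organs. Of 30 in the files, 23 were tested, of which 22 were higher in kidney and Hoxa2 was not called (median 7.53, or 5.22 with the 7 genes at 0 in liver set at 3 reads). The call of Hoxc11 was lost without kidney replicate 1 and without liver replicate 1. Hoxb9 stood at 16.1 and 16.9 RPKM in kidney with no liver read, at least 949-fold higher in kidney. Hoxd8 stood at 60.2 and 56.4 RPKM in kidney and 0.0437 and 0 RPKM in liver (log2 11.30 ± 0.58, adjusted p = 3.38e-07). Differences were smaller for other members, with Hoxb5 at 2.47 and 2.62 RPKM in kidney and 0.377 and 0.566 RPKM in liver (log2 2.43 ± 0.40, adjusted p = 0.00102) and Hoxb4 at 8.23 and 3.46 RPKM in kidney and 1.06 and 0.532 RPKM in liver (log2 2.87 ± 0.50, adjusted p = 0.00135).

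Some genes with the same direction lay side by side. Runs of at least 5 neighbouring tested genes called in one direction numbered 29 for kidney, with 173 genes, and 24 for liver, with 169 genes. The longest kidney run held 11 genes of the Hoxb cluster at chr11:96265164-96354691, from Mir196a-1 and Hoxb9 to Hoxb2. The next held 9 kallikrein genes and pseudogenes of the Klk1b family at chr7:43942662-44202352, and one of the runs of 7 held the Hoxd genes from Hoxd11 to Hoxd3 at chr2:74679557-74762896. The longest liver run held 19 major urinary protein genes and pseudogenes, from Mup7 to Mup21, at chr4:60066469-62150863. A run of 13 held 12 Cyp2c genes and Pdlim1 at chr19:39007019-40271842, and a run of 9 held the Sult2a region at chr7:13639107-14563506. Coordinates are of GRCm38, from GENCODE M21. Members of the Klk1b, Mup, Cyp2c and Sult2a families are near-identical, so reads may be split among copies and the number of genes that truly differ in such a run is uncertain.

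Genes of basic cell functions were mostly not called on the TMM scale. Of 84 cytosolic ribosomal protein genes tested, 1 was higher in kidney, 1 in liver and 82 were not called (median −0.39). The pair called were Rpl3l, a muscle paralogue with few reads, and Rps27l, and both calls were lost without kidney replicate 2. Of 80 respiratory chain subunits, 5 were higher in kidney and 75 were not called (median 0.25), and 4 of the 5 were tissue-restricted isoforms or paralogues (Cox6a2, Cox6b2, Cox7a1 and Cox8b). Of 16 housekeeping genes, 14 were not called, B2m was higher in liver (log2 −2.98 ± 0.42, adjusted p = 0.000319) and Tfrc in kidney. These results turned on the scaling: with library size alone, 65 respiratory chain genes and 7 housekeeping genes were called higher in kidney, and the ribosomal calls were 2 and 0. Of 185 genes with at least 100 RPKM in all 4 libraries, 148 were not called, 31 were higher in liver and 6 in kidney. The 6 with the smallest log2 fold change were Cst3, Dcxr, Uqcrb, Ndufa4, Atp5k and Skp1a. Cst3, cystatin C, stood at 146 and 188 RPKM in kidney and 141 and 193 RPKM in liver (log2 0.0020 ± 0.31).

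The organ difference was then read in the 4 kidney and liver libraries of mice given cisplatin (10 mg per kg), which share no library with the controls. There, 15270 genes were tested and 4905 (32.1%) were called, 2893 (18.9%) higher in kidney and 2012 (13.2%) in liver. Of the 3421 genes called higher in kidney in controls, 2552 (74.6%) were called higher in kidney again, and 3232 of the 3251 tested had the same sign. Of the 2419 called higher in liver, 1759 (72.7%) were called again, and 2346 of the 2367 tested had the same sign. No gene higher in kidney in controls was called higher in liver after cisplatin, and 3 went the other way. Plk3, a kinase of the stress response, stood at 7.51 and 6.63 RPKM in liver, against 1.34 and 1.14 RPKM in kidney, in controls (log2 −2.52) and had a log2 fold change of 2.29 after cisplatin. Osgin1, an oxidative stress gene, had −1.52 and 1.72, and Rnd3, an atypical small GTPase, −1.51 and 1.67. The number called in the treated libraries rested on single libraries: it was 3243 and 3039 without kidney replicate 1 or 2, and 7742 and 6236 without liver replicate 1 or 2.

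Excision repair and damage libraries of cisplatin-treated kidney and liver (n = 2 per organ and assay) give another readout of the same genes, as reads on the transcribed and non-transcribed strand of each gene. The values are log2 ratios of kidney over liver in CPM with a pseudocount of 1, and permutation of 2 against 2 libraries cannot give a p below 1 in 3, so no test was made. Repair reads (XR-seq, which sequences the excised oligomers) on the transcribed strand had a median of 0.833 for genes higher in kidney (0.753 to 0.941 over library pairs), −0.530 for genes higher in liver (−0.545 to −0.518) and 0.259 over all genes tested. On the non-transcribed strand the medians were 0.433, −0.521 and 0. The order of the groups followed expression on both strands. Damage reads (Damage-seq) on the transcribed strand had medians of 0.101 for kidney genes and 0.655 for liver genes (0.627 to 0.660), against 0.488 over all genes, and on the non-transcribed strand 0.116 and 0.0557, against 0.143. On the transcribed strand the order of damage reads was thus the reverse of that of repair reads. Genes not called had a median of 0.589 there (0.483 to 0.663 over library pairs). That range held the median of the liver genes, so only the kidney genes stood apart from genes not called. Damage formed and damage left after repair cannot be told apart in these reads.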

How the data were processed

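The deposited RNA-seq files hold read counts per gene for all 25059 listed genes. Per the labels, the authors aligned reads to mm10 with STAR, counted them with featureCounts and used DESeq2; versions are not given in the sources used here. The authors also deposited counts of XR-seq and Damage-seq reads per gene and strand, in the same gene list; only the kidney and liver libraries were used here. No mitochondrial genes are listed, and 25041 genes were matched by gene ID to a GENCODE M21 position.

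Samples were grouped by their labels. Genes passing filterByExpr were tested with edgeR 4.0.16 in R 4.3.3 (TMM normalization, quasi-likelihood fit over the 4 control libraries, glmTreat against a log2 fold change of 0.4, Benjamini-Hochberg adjusted p under 0.05). TMM factors were 1.44 and 1.26 for kidney and 0.814 and 0.680 for liver, and the biological coefficient of variation was 0.263. RPKM values use exon length and the TMM-scaled library size. The SE is the log2 fold change over the square root of the F statistic against 0. Where one organ had no read, the bound sets its group at 3 reads in all. With 1 to 3 reads, the ratio has an exact 95% interval. Both cover counting error in the control libraries only. In simulated counts for the control comparison, 200 of 15549 genes were changed: edgeR recovered 75% of 4-fold and 7% of 2-fold changes with 1 false call, and DESeq2 1.42.0 recovered 55% and 2% with 0. In the data 5840 genes were called, so the adjustment of p was stricter in the simulation and these rates need not hold for the data.

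Replicates of one organ differed by more than sampling noise (dispersion index 83.7 in kidney and 349 in liver), so each was counted once. Alternatives were other scalings, DESeq2, no filter, other fold thresholds, a replicate block, a fit over 8 libraries and leaving out each library. Named genes, by RPKM on the plain count total, are the 6 most abundant in each organ. To these come the 12 largest fitted fold changes in each direction, at 10 RPKM or more with libraries that do not overlap. Called members of gene lists and members against their list's direction are named too. So are the 6 smallest fold changes at 100 RPKM or more in all libraries. The last are 24 pairs of related genes (20 reported) and the longest runs of neighbouring genes. The samples, lists and pairs were chosen with earlier results of these data known. Of the listed symbols, Cyp11b2, Hsd3b7, Epo and Slc22a13 were not analysed here, Hjv was counted under its other symbol Hfe2, and Tf and Tmem27, which the annotation names Trf and Cltrn, were not counted in the lists. Results for a few genes of these lists are not reported here, although list counts include them. Promoter windows are from RefSeq, and figures were drawn with matplotlib 3.10.9.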

Additional observations from a re-analysis of the deposited data

Results flagged for a closer look

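The log2 fold change of kidney over liver differed between control and cisplatin libraries for Plk3, a kinase of the stress response. It stood at 1.34 and 1.14 RPKM in control kidney and 7.51 and 6.63 RPKM in control liver, and at 119 and 127.5 RPKM in kidney and 25.1 and 25.5 RPKM in liver after cisplatin. The difference of the log2 fold changes, control minus cisplatin, was −4.76 (SE 0.37, n = 2 per group, adjusted p = 0.00414, edgeR quasi-likelihood test of the interaction of organ and treatment). In controls both liver libraries lay above both kidney libraries, and after cisplatin both kidney libraries lay above both liver libraries. Plk3 was the 1 gene of 16075 tested that passed, and 912 genes had an unadjusted p under 0.05.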

How the results depend on the processing

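The count of genes that differ between control kidney and liver stayed within 1.5 times of 5840 in every alternative: 5814 with DESeq2 size factors, 4788 with DESeq2, 6347 without the filter, 6645 against a log2 fold change of 0, 4269 against 1, 5369 in the fit over 8 libraries, 7873 with library size alone, and 4609 to 5070 with 1 library left out, where the lone library is assumed to vary like the others. Library size alone moved the split to 6484 higher in kidney and 1389 higher in liver. Replicate numbers are shared by the groups but not tied to animals. The authors describe a ComBat correction for a known batch, but the labels name no batch. Whether replicate numbers follow that batch is not known. The differences between replicates 1 and 2 correlated across organs at Pearson r = 0.366 in controls and 0.217 after cisplatin, and a replicate block gave 7035 calls in controls and 5742 after cisplatin. Over single libraries left out, the cisplatin comparison gave 3039 to 7742 calls, 1857 to 4329 higher in kidney and 1161 to 3413 higher in liver. Of 86 counts of called genes by list and direction, 10 moved by over 1.5 times with library size alone and 0 with DESeq2 size factors. Of 748 genes followed through all settings, none turned direction with a call in both, 45 lost their call against a log2 fold change of 1, 35 with library size alone, 19 with DESeq2 and 20 to 38 with 1 library left out. Median repair ratios on the transcribed strand were 1.01 and −0.732 for kidney and liver genes with a pseudocount of 0.1, and −0.556 for liver genes with at least 20 reads, and those of liver genes lay between −0.543 and −0.527 with 1 library left out. On the non-transcribed strand they were 0.580 and −0.877 with a pseudocount of 0.1. Damage ratios of liver genes on the transcribed strand were 0.783 with a pseudocount of 0.1, 0.675 with at least 20 reads and 0.633 to 0.671 with 1 library left out, and on the non-transcribed strand 0 to 0.138 with 1 library left out. The cause of these shifts was not tested. Kidney 1 was the shallowest library, but an organ counted as having no read had none in both of its libraries. The TMM-scaled depths were 27781584 and 69094455 for kidney 1 and 2, and 33336770 and 32980728 for liver 1 and 2. Having no read in liver is therefore the more limited of these observations. In simulated counts, where far fewer genes differed than were called here, 4-fold changes were missed in part, and that rate need not hold for these data.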

Other observations

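Both other genes whose organ order turned after cisplatin, Osgin1 and Rnd3, did not pass the test of the interaction across all genes. Osgin1 stood at 14.7 and 26.8 RPKM in control kidney and 38.5 and 80.7 RPKM in control liver, and at 122 and 177 RPKM in kidney and 32.5 and 58.5 RPKM in liver after cisplatin. Rnd3 stood at 1.95 and 2.17 RPKM in control kidney and 5.64 and 6.12 RPKM in control liver, and at 23.7 and 22.8 RPKM and 9.56 and 5.03 RPKM after cisplatin. In both genes the liver libraries of controls and treated mice overlapped, and the treated kidney libraries lay above the control kidney libraries.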
